A study of Mus musculus with 6 samples.

Results

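The CYP4 fatty acid hydroxylases are cytochrome P450 enzymes of the endoplasmic reticulum. The 10 genes described here are Cyp4a10, Cyp4a12a, Cyp4a12b, Cyp4a14, Cyp4a31, Cyp4a32, Cyp4b1, Cyp4f13, Cyp4f14 and Cyp4v3. They were chosen by name, with earlier results of these data known. A level was taken only from a probe set paired with a single gene. 7 of the 10 had one, among 18820 genes of the array that did. Cyp4a10, Cyp4a32 and Cyp4v3 were found only in probe sets shared with other genes (Cyp4a10 and Cyp4a32 with each other or with Cyp4a31, Cyp4v3 with Klkb1), so no level is given for them.

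CYP4 enzymes add a hydroxyl group to the last carbon of a fatty acid, the omega position. The product is oxidised further to a dicarboxylic acid, which is shortened in peroxisomes. In liver the Cyp4a10, Cyp4a14 and Cyp4a31 group is a classical target of PPARα, the nuclear receptor that senses fatty acids. Cyp4a12a, and with it its near copy Cyp4a12b, is known as a gene of male mice, and the Cyp4f enzymes act on leukotrienes and other long-chain lipids.

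RNA from whole livers of 6 female C57BL/6J mice was measured on Affymetrix Mouse Gene 1.1 ST arrays, 1 per mouse, with 3 mice in each group. The CT mice carried floxed alleles of the estrogen receptor alpha gene Esr1 (ERα fl/fl), and the LERKO mice carried the same floxed alleles together with Alb-cre, a cre recombinase driven by the albumin promoter. The albumin promoter is active in hepatocytes, and ERα in the other cells of the liver was not measured separately. Every LERKO mouse also carried cre and no CT mouse did, so an effect of cre cannot be told apart from an effect of losing ERα. The labels call the arrays of a group biological replicates. The age of these mice is not given in the sources used here.

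The Esr1 probe set read 8.45, 8.78 and 8.29 in CT livers and 6.75, 7.06 and 6.77 in LERKO livers (RMA signal, log2). The groups did not overlap, and the difference was -1.65 (SE 0.15; limma adjusted p = 0.149). All 6 hepatocyte marker genes measured were at a signal of 100 or more in every array. Between 9452 and 9865 probe sets reached that signal in an array. In CT 3, 4 of 5 markers of exocrine pancreas, 3 of 5 of skeletal muscle and 2 of 4 of squamous epithelium reached it, and in no other array. In LERKO 2, 5 of 6 markers of adrenal gland and 1 of 4 of adipose tissue (Retn) did, and in no other array. Values without CT 3 and LERKO 2 are given where they move a result.

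None of the 7 measured CYP4 genes passed an adjusted p of 0.05 in limma, and neither did any of the 10633 probe sets that reached a signal of 100 in at least 1 array (0%). At an unadjusted p of 0.05, 2 of the 7 passed, Cyp4a14 and Cyp4a31, both with higher signals in LERKO livers. Without CT 2 neither passed, without LERKO 1 only Cyp4a31 did, and without CT 3 and LERKO 2 both did. Over all probe sets, 742 (6.98%) passed in either direction and 317 (2.98%) passed with higher signals in LERKO. The same 2 genes had every LERKO mouse above every CT mouse, which was so for 628 probe sets (5.91%). 3 of the 7 had a higher mean in LERKO and 4 a lower one. Their median difference was -0.02 (log2), beside -0.01 over all probe sets tested. Of the 7, 5 reached the signal of 100 in all 6 arrays. Cyp4a12a and Cyp4a12b reached it in CT 3 alone and were tested only because of that array.

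**Figure D1:**
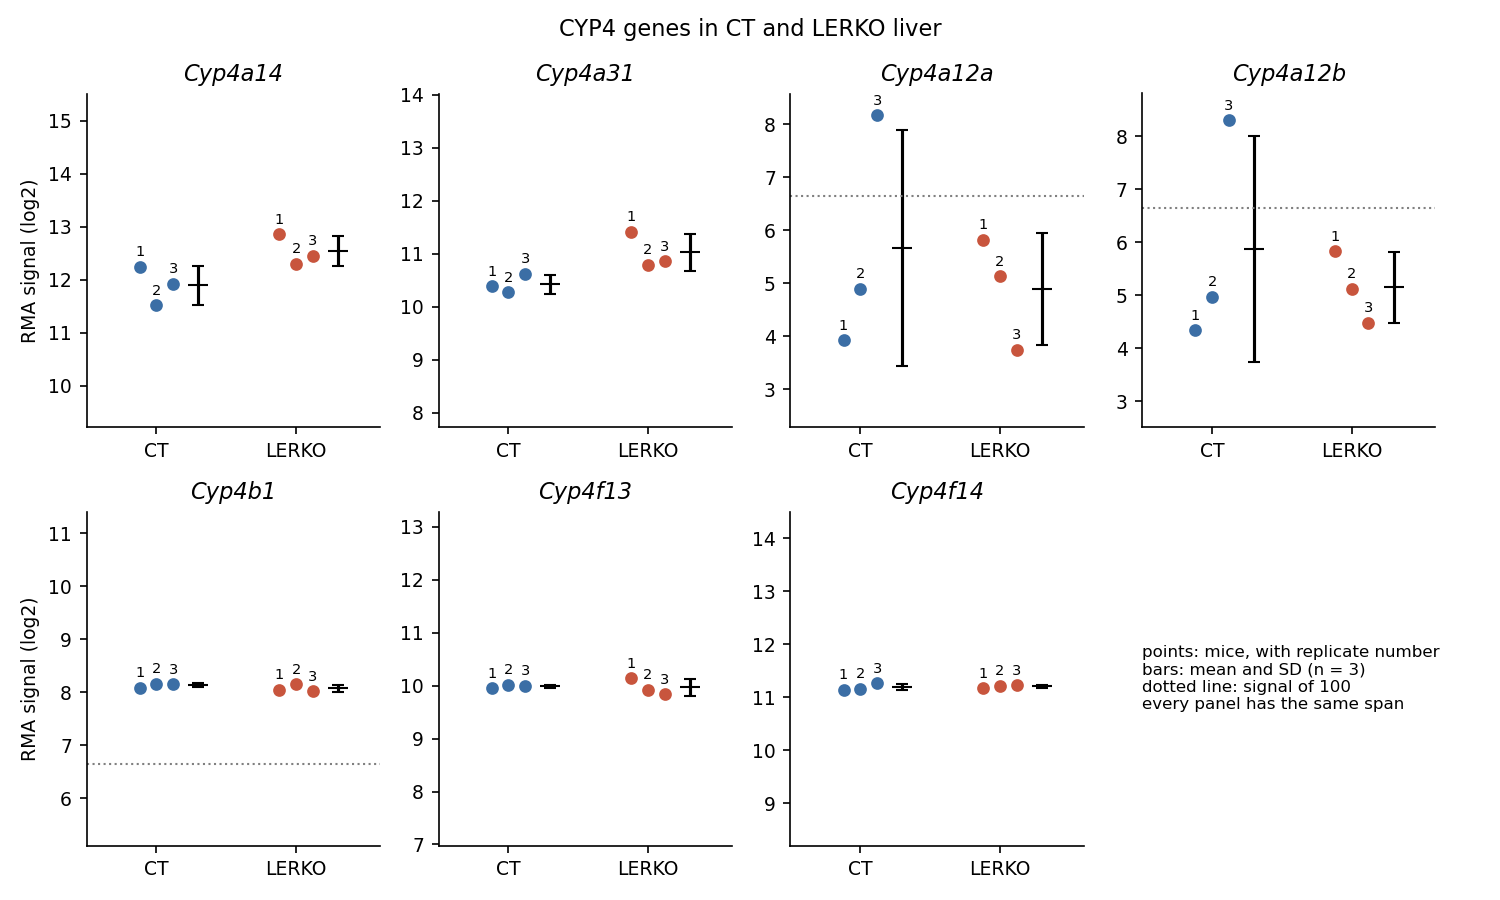
RMA signal (log2) of the 7 measured CYP4 genes in each mouse. Each panel is 1 gene and spans the same number of log2 units, numbers mark the mouse within its group, the bar is the mean with the SD of 3 mice, and the dotted line is a signal of 100. The LERKO mice lie above the CT mice for Cyp4a14 and Cyp4a31, and CT 3 lies far above the other 5 mice for Cyp4a12a and Cyp4a12b.

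Cyp4a14 and Cyp4a31 make omega-hydroxylases of medium and long fatty acids. Cyp4a14 read 12.25, 11.52 and 11.93 in CT livers and 12.86, 12.30 and 12.45 in LERKO livers (log2). The lowest LERKO mouse was above the highest CT mouse by 0.06 (log2), so the groups were separate but close to touching. The mean was 11.90 ± 0.37 in CT and 12.54 ± 0.29 in LERKO (SD, n = 3). The difference was 0.64 (SE 0.22; log2), a 1.56-fold higher signal with a 95% confidence interval of 1.09 to 2.24, and limma's adjusted p was 0.703. An exact two-sided permutation test over the 6 mice gave p = 0.1, the smallest that 3 against 3 mice can give.

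Cyp4a31 read 10.39, 10.27 and 10.62 in CT livers and 11.42, 10.79 and 10.86 in LERKO livers (log2). LERKO 1 stood highest, and the lowest LERKO mouse was above the highest CT mouse by 0.17. The means were 10.43 ± 0.18 and 11.02 ± 0.34 (SD, n = 3), a difference of 0.60 (SE 0.18) or 1.51-fold (95% confidence interval 1.11 to 2.05). limma's adjusted p was 0.703, and the exact permutation p was again 0.1. Its probe set shares an annotated transcript with the 2 shared probe sets that also carry Cyp4a10, so signals of these near-identical genes may be mixed and the Cyp4a31 value is uncertain in that respect.

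Both differences kept their sign under every alternative run. When 1 mouse was left out at a time, the Cyp4a14 difference ran from 0.45 (without CT 2) to 0.82 and the Cyp4a31 difference from 0.40 to 0.71. Without CT 3 and LERKO 2, the arrays with markers of other organs, the differences were 0.77 for Cyp4a14 and 0.81 for Cyp4a31. The adjusted p stayed between 0.443 and 0.992 for Cyp4a14 and between 0.362 and 0.992 for Cyp4a31 over all the alternatives.

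**Figure D2:**
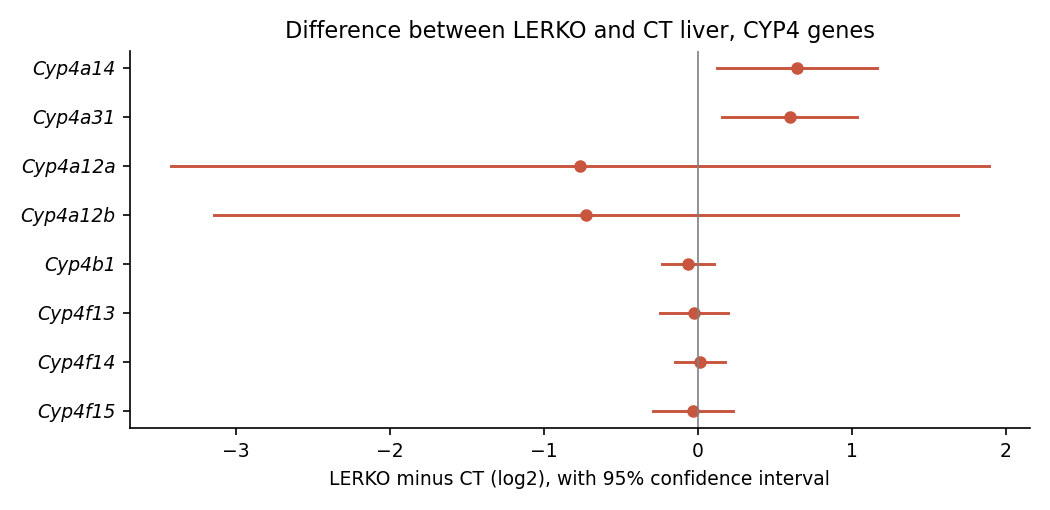
LERKO minus CT difference in RMA signal (log2) for the 7 measured CYP4 genes and Cyp4f15, each with its 95% confidence interval from limma. The intervals of Cyp4a14 and Cyp4a31 lie above 0, those of Cyp4b1, Cyp4f13, Cyp4f14 and Cyp4f15 are narrow around 0, and those of Cyp4a12a and Cyp4a12b span several log2 units.

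Cyp4a12a encodes an omega-hydroxylase that makes a vasoactive product from arachidonic acid. It read 3.93, 4.90 and 8.17 in CT livers and 5.82, 5.13 and 3.75 in LERKO livers (log2). CT 3 was the only mouse at a signal of 100, and it was at least 2.88-fold higher than the other 5 mice when these are set at that signal. The means were 5.66 ± 2.22 and 4.90 ± 1.06 (SD, n = 3), and the difference of -0.77 had a 95% confidence interval of -3.42 to 1.89 (limma adjusted p = 0.892). Without CT 3 it changed sign, to 0.49 (SE 0.63), with every mouse then below a signal of 100.

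Cyp4a12b read 4.33, 4.97 and 8.31 in CT livers and 5.83, 5.12 and 4.48 in LERKO livers (log2). CT 3 was again the only mouse at a signal of 100, at least 3.16-fold higher than the other 5 by the same bound. The means were 5.87 ± 2.13 and 5.14 ± 0.68 (SD, n = 3), a difference of -0.72 (95% confidence interval -3.14 to 1.69; limma adjusted p = 0.887), and without CT 3 it was 0.49. The Cyp4a12a and Cyp4a12b genes lie next to each other on chromosome 4 in RefSeq's GRCm38.p6. Their probe sets shared no annotated transcript, and their root mean square difference over the 6 mice, each centred on its own mean, was 0.26. Probe sequences were not compared, so signals of these near copies may still be mixed. No other gene among 6901 was as near to Cyp4a12a, the next being Slco1a1 at 0.55 and Lce1c at 0.64. For Cyp4a12b the next were Lce1c at 0.41 and Sycn, a pancreas gene, at 0.44. Like Cyp4a12a and Cyp4a12b, the genes Slco1a1, Lce1c and Sycn reached a signal of 100 in CT 3 alone. They were kept only through that array and were picked for likeness, so the values are a description.

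Slco1a1, a bile salt and organic anion transporter of male-biased expression, read 5.06, 5.94 and 8.03 in CT and 6.04, 6.03 and 5.19 in LERKO livers (log2). Mup20, a major urinary protein of males, read 11.25, 11.46 and 12.43 in CT and 11.33, 11.25 and 10.43 in LERKO. Both were highest in CT 3. Of the other male-biased genes, Elovl3, a fatty acid elongase, read 6.34, 4.06 and 6.83 against 6.60, 6.41 and 6.97, and Egfr differed by -0.52 (SE 0.39).

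CT 3 was the highest of the 6 mice for 9 of 15 male-biased genes, where 12 had a lower mean in LERKO and 3 a higher one (median -0.23, log2). Of the 15, Slco1a1 was kept only through CT 3 and Cyp2u1 only through CT 2, the arrays where they were high. Among the 9 that reached a signal of 100 in all 6 arrays, 7 had a lower mean and 2 a higher one (median -0.13). None of the 15 passed an unadjusted p of 0.05 in limma, beside 6.98% of all probe sets. Without CT 3 the split was 8 lower and 7 higher, with a median of -0.0075 (9 and 6 without CT 3 and LERKO 2). Without LERKO 3 the median was -0.11, and without CT 1, 2 of the 15 passed, beside 6.1% of all probe sets. The markers of pancreas, squamous epithelium and skeletal muscle that stood out in CT 3 had summed signals of 10.83, 10.39 and 9.68 there (log2), against 6.42 to 6.63, 5.55 to 5.91 and 6.12 to 7.67 in the other mice. No kidney marker reached a signal of 100 in any array. The part of these organs' RNA in the CT 3 values of Cyp4a12a and Cyp4a12b was not tested. In whole liver, fewer cells of a type and less RNA per cell cannot be told apart.

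**Figure D3:**
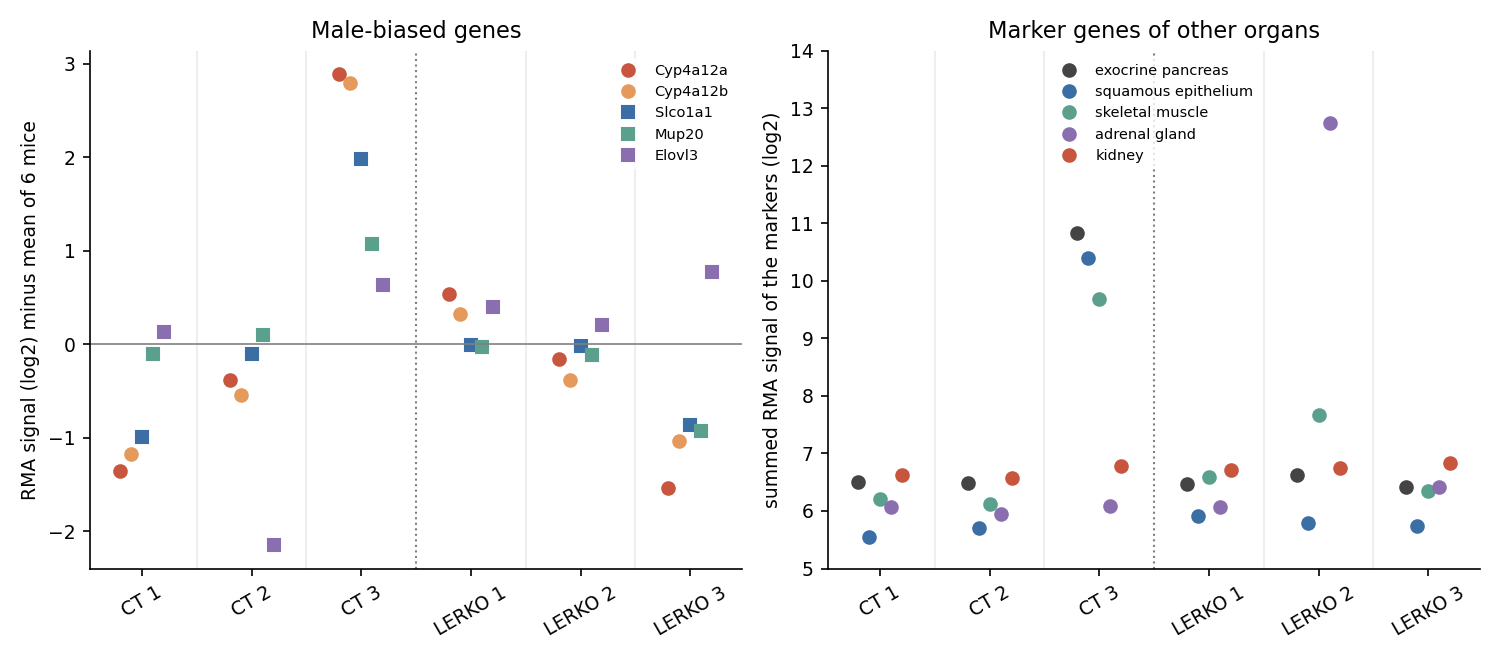
Left, RMA signal (log2) minus the mean of the 6 mice for Cyp4a12a, Cyp4a12b and 3 other male-biased genes. Right, log2 of the summed signal of marker genes of other organs, per mouse. CT 3 is highest for Cyp4a12a, Cyp4a12b, Slco1a1 and Mup20 and also for the pancreas, squamous epithelium and skeletal muscle markers, and LERKO 2 is highest for the adrenal markers.

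The remaining measured CYP4 genes differed little between groups. Cyp4b1, a hydroxylase better known from lung, read 8.08, 8.16 and 8.15 in CT livers and 8.05, 8.15 and 8.01 in LERKO livers (log2). The groups overlapped, and the difference of -0.06 corresponded to 0.956-fold with a 95% confidence interval of 0.852 to 1.07 (limma adjusted p = 0.851).

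Cyp4f13 and Cyp4f14 belong to the leukotriene hydroxylases. Cyp4f13 read 9.96, 10.01 and 10.002 in CT livers and 10.14, 9.92 and 9.84 in LERKO livers (log2). The LERKO mice lay on both sides of the CT mice. The difference was -0.02 (SE 0.09), with a 95% confidence interval of 0.844 to 1.14-fold and a limma adjusted p of 0.966.

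Cyp4f14 read 11.14, 11.16 and 11.26 in CT livers and 11.17, 11.21 and 11.23 in LERKO livers (log2). Its whole range over the 6 mice was 0.12, the narrowest of the 7. The difference was 0.01 (SE 0.07), and the interval ran from 0.904 to 1.13-fold (limma adjusted p = 0.973). A change as large as that measured for Cyp4a14 or Cyp4a31 lay outside the intervals of Cyp4b1, Cyp4f13 and Cyp4f14. Whether the difference itself differed between these genes was not tested.

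Of 12 other CYP4 genes of the mouse, 8 had a probe set of their own and only Cyp4f15 reached a signal of 100. It read 10.88, 11.07 and 10.68 in CT livers and 10.91, 10.84 and 10.79 in LERKO livers (log2), a difference of -0.03 (SE 0.11; limma adjusted p = 0.965). Cyp4f16, Cyp4f18, Cyp4f37, Cyp4f39, Cyp4f40, Cyp4f41-ps and Cyp4x1 were below that signal in every array.

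In RefSeq's GRCm38.p6 the Cyp4a genes form a run on chromosome 4, in the order Cyp4a29, Cyp4a12a, Cyp4a12b, Cyp4a30b, Cyp4a14, Cyp4a10, Cyp4a31 and Cyp4a32, followed by Cyp4b1. RefSeq promoter windows around the start of the gene were held for Cyp4a32, Cyp4b1, Cyp4f13, Cyp4f14 and Cyp4v3 only. They were searched on both strands for 2 motifs, PPARα's direct repeat (AGGTCA, 1 base, AGGTCA) and the estrogen receptor's palindrome (GGTCA, 3 bases, TGACC), allowing 2 letters to differ. By that rule 4.4% of 27025 genes held the direct repeat and 12.6% the palindrome in windows of the same length. The direct repeat was found in none of the 5 CYP4 genes and the palindrome in Cyp4a32 alone. That match differed by 1 letter, and 269 genes (0.995%) had one as close. It is shown because it is the only match among the CYP4 windows, with the matching letters, -77 to -65 from the start, in capitals, although no level was measured for Cyp4a32. The whole sequence printed lies at chr4:115600688-115600937 on the plus strand.
Cyp4a32 promoter: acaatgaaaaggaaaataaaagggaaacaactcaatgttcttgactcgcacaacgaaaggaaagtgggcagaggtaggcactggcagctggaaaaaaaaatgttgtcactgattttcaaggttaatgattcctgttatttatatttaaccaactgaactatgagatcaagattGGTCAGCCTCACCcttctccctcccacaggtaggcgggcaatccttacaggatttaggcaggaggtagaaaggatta
A match of letters is a description and says nothing of binding.

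Cyp4a14 and Cyp4a31 were then set beside genes of their pathway. Ppara itself read 10.99, 10.96 and 10.998 in CT livers and 10.98, 10.89 and 10.99 in LERKO livers (log2). The difference was -0.03 (SE 0.06; limma adjusted p = 0.946). All the gene lists used here were drawn up with earlier results of these data known, so their counts are a description. Among 35 other PPARα target genes, 30 were measured above the signal minimum and 28 of these had a higher mean in LERKO. Their median difference was 0.30 (log2), beside -0.01 over all probe sets. Cidec, 1 of the 28, was kept only through LERKO 2, where it was high. Among the 27 that reached a signal of 100 in all 6 arrays, 26 had a higher mean and 1 a lower one (median 0.28). 11 of the 30 passed an unadjusted p of 0.05, all with higher signals in LERKO, and none passed an adjusted p of 0.05. Over all probe sets, 6.98% passed that unadjusted p and 2.98% passed it with higher signals in LERKO.

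Vnn1, a pantetheinase, had the largest difference of the list. It read 9.23, 7.87 and 9.55 in CT livers and 10.67, 9.69 and 10.65 in LERKO livers (log2), a difference of 1.46 (SE 0.48; limma adjusted p = 0.703) without overlap. Decr1, a mitochondrial reductase for unsaturated fatty acids, read 9.43, 9.22 and 9.47 against 10.07, 9.68 and 10.04, a difference of 0.56 (SE 0.13), also without overlap. Acot1, an acyl-CoA thioesterase (1.12, SE 0.53), and Pex11a, a peroxisome proliferation factor (0.57, SE 0.21), had higher means with overlapping groups. For Acot1, CT 1 and CT 2 were below a signal of 100. The 2 genes with a lower mean were Pdk4 (-0.45, SE 0.29) and Txnip (-0.07, SE 0.43).

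CT 2 was the lowest of the 6 mice for 16 of the 30 target genes, and LERKO 1 was the highest for 17. CT 2 was also the lowest for Cyp4a14 and Cyp4a31, and LERKO 1 the highest for both. Without LERKO 1, 26 of 30 had a higher mean in LERKO, the median difference was 0.21 and 5 passed an unadjusted p of 0.05. Without CT 2 the median was 0.24 and 9 passed, 8 of them with higher signals in LERKO, and without LERKO 3, 5 passed. Without CT 3 and LERKO 2 together, 28 had a higher mean, with a median of 0.35, and 15 passed. The share of all probe sets that passed moved too. It was 3.91% without LERKO 1, 6.24% without CT 2 and 4.87% without LERKO 3. Without CT 3 and LERKO 2 together it was 10.8%, beside 6.98% with all 6 mice.

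**Figure D4:**
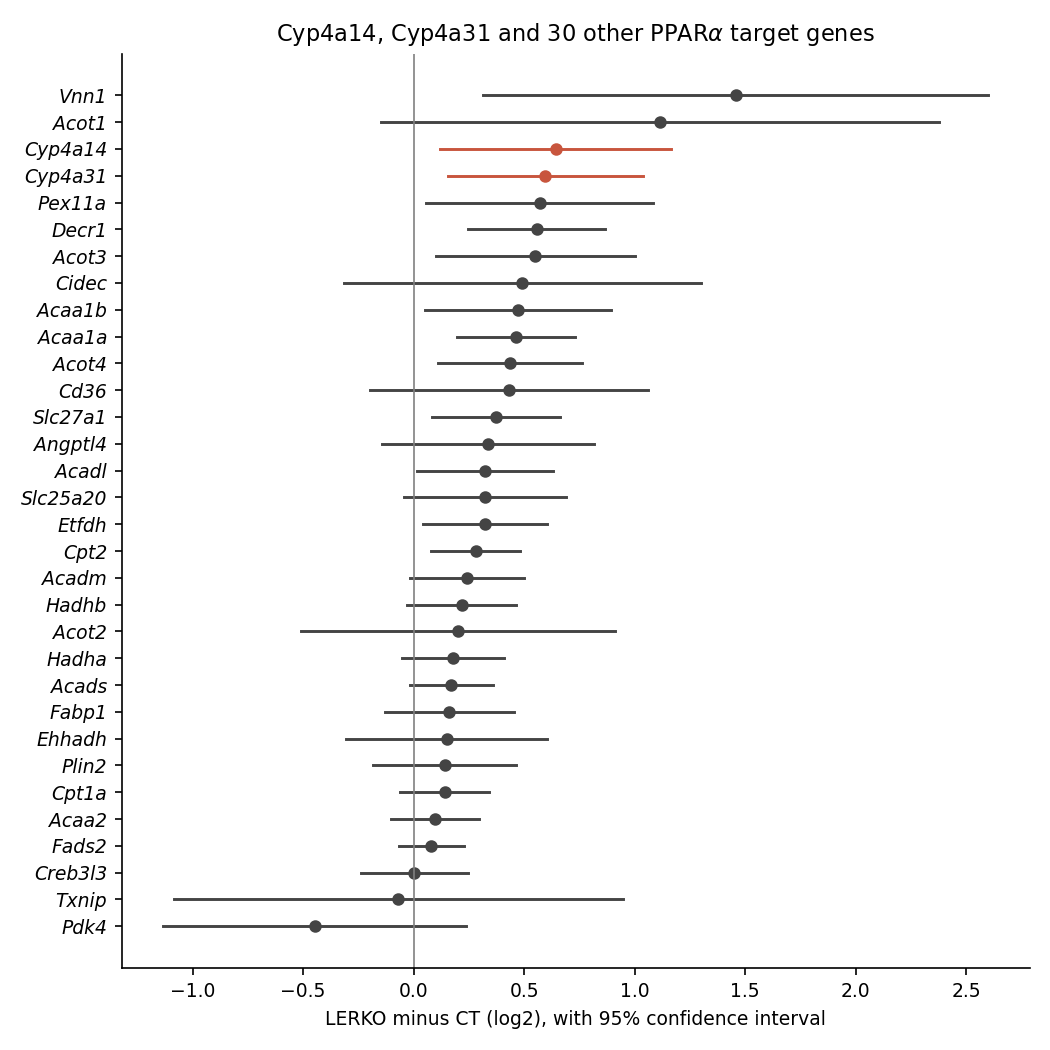
LERKO minus CT difference in RMA signal (log2) with its 95% confidence interval from limma for Cyp4a14, Cyp4a31 and 30 other PPARα target genes. 28 of the 30 lie to the right of 0, and none of them passed an adjusted p of 0.05.

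The genes whose levels ran most like Cyp4a14 over the 6 mice, by the same root mean square difference, were Rdh9, a retinol dehydrogenase (0.15), Abhd6, a monoacylglycerol lipase (0.16), and Slc25a21, a mitochondrial carrier (0.16). For Cyp4a31 they were Slc22a5, a carnitine transporter (0.13), Gba2, a glucosylceramidase (0.14), and Hsdl2, a peroxisomal dehydrogenase-like protein (0.14). Slc22a5 read 8.15, 7.79 and 8.46 in CT and 8.90, 8.53 and 8.57 in LERKO livers (log2), and Rdh9 read 9.14, 8.43 and 8.84 against 9.50, 8.91 and 9.05. These genes were picked for that likeness, so the values are a description.

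**Figure D5:**
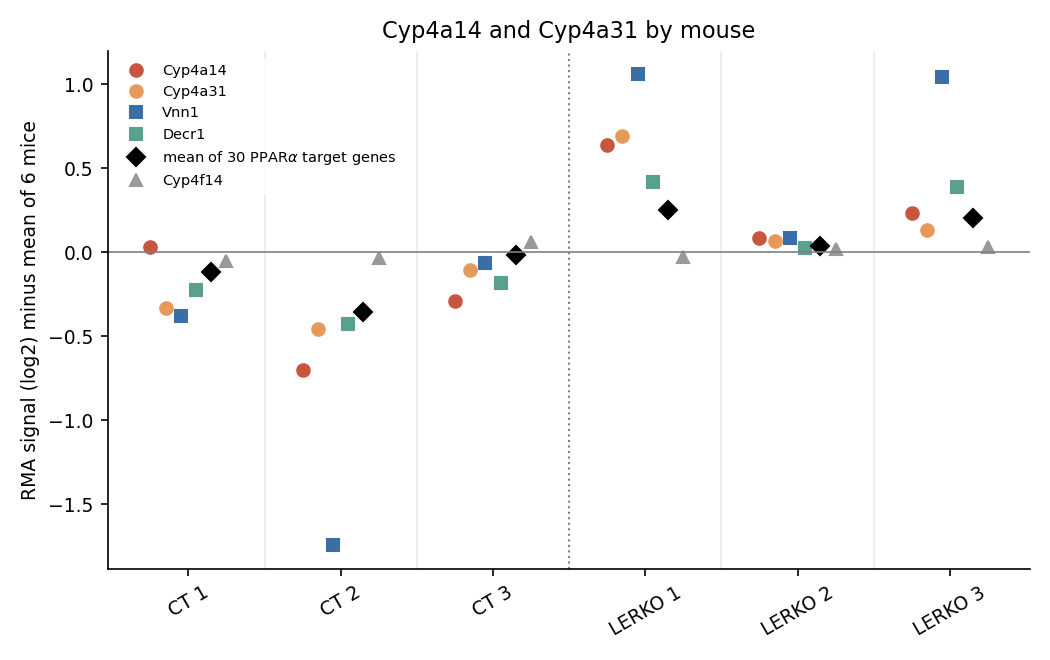
RMA signal (log2) minus the mean of the 6 mice for Cyp4a14, Cyp4a31, Vnn1, Decr1, Cyp4f14 and the mean of 30 PPARα target genes. CT 2 is lowest and LERKO 1 highest for Cyp4a14, Cyp4a31 and the mean of the target genes, and Cyp4f14 stays near 0 in every mouse.

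The enzymes that act after omega-hydroxylation form the next list. 25 of 31 were measured above the signal minimum, 18 with a higher and 7 with a lower mean in LERKO (median 0.10, log2). 6 passed an unadjusted p of 0.05, all higher in LERKO, beside 2.98% of all probe sets in that direction, and none an adjusted one. Without LERKO 3 only 3 passed, and the median was 0.05 without LERKO 1 and 0.15 without LERKO 2. The acyl-CoA thioesterases Acot3 (0.55, SE 0.19) and Acot4 (0.44, SE 0.14) and the peroxisomal thiolases Acaa1b (0.47, SE 0.18) and Acaa1a (0.46, SE 0.11) had the largest differences. Acaa1a read 8.05, 7.79 and 7.86 in CT livers and 8.45, 8.18 and 8.47 in LERKO livers (log2), without overlap. Several of these genes are also known PPARα targets, so the lists are not independent.

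P450 enzymes draw electrons from partner proteins. 5 of 7 partner genes were measured, and over all probe sets 6.98% passed an unadjusted p of 0.05. The only partner gene that passed it was Cyb5r3, the cytochrome b5 reductase. It read 12.50, 12.42 and 12.42 in CT livers and 12.16, 12.28 and 12.30 in LERKO livers (log2), a difference of -0.20 (SE 0.07; limma adjusted p = 0.703) with every LERKO mouse below every CT mouse. None of the 5 passed without CT 1, without LERKO 1, without LERKO 2, without CT 3 and LERKO 2, with no signal filter or with the replicate number as a block. Cyb5b differed by -0.09 (SE 0.14), Pgrmc1 by 0.07 (SE 0.07) and Cyb5a by 0.06 (SE 0.06). Por, the main reductase, had no single-gene probe set among those kept, so its level was not analysed and is not known from these values.

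Other P450 and hydrolase genes of arachidonic acid metabolism were mixed. Of 17 measured of 32, 10 had a higher and 7 a lower mean in LERKO (median 0.07, log2). 2 passed an unadjusted p of 0.05, Cyp2j9 and Ephx2, beside 6.98% of all probe sets. None passed without CT 2 or without LERKO 3, and 1 passed without CT 3, LERKO 1 or LERKO 2 or without CT 3 and LERKO 2 together. The median was 0.011 without CT 2, 0.11 without CT 1 or LERKO 3 and 0.14 without CT 3 and LERKO 2. Ephx2, the soluble epoxide hydrolase, differed by 0.20 (SE 0.08) with every LERKO mouse above every CT mouse. Cyp2j9, an epoxygenase-family enzyme, differed by -0.53 (SE 0.20), Cyp2c54 by 0.37 (SE 0.36), Cyp2c39 by 0.34 (SE 0.21) and Cyp2c50 by 0.24 (SE 0.27). For Cyp2j9, LERKO 2 and LERKO 3 were below a signal of 100. None of the 17 passed an adjusted p of 0.05 in limma.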

How the data were processed

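The deposited values were log2 RMA signals, made by the authors with the oligo package (version not given in the sources used here) from Affymetrix Mouse Gene 1.1 ST arrays. Of 35556 probe sets, 21218 were paired with 1 gene, 1881 with several and 12457 with none. The symbol was taken from RefSeq for 21185 probe sets paired with 1 gene, whether or not it changed. Probe sets at a signal of 100 in at least 1 array were kept (10633, of which 7895 had 1 gene, for 6902 genes). A gene with several took the one of highest mean. LERKO was compared with CT in limma 3.58.1 (R 4.3.3; lmFit and eBayes, Benjamini-Hochberg over the kept probe sets), and single values by an exact permutation test. The script was tested on simulated data. The number of arrays limits the precision. P-values set the difference between groups against the spread between these mice, which limma moderates over the probe sets tested.

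The CYP4 members and the gene lists were chosen with earlier results of these data known. Named were the members, Esr1, Ppara, Por, the other CYP4 genes, up to 4 genes of largest difference per list, the 3 nearest in pattern to each member ranging over at least 1 log2 unit, and markers of other organs. The lower genes of the PPARα list, Ephx2, Ppargc1b and Nr3c1 were named after their values were seen. Filters, scaling, variance models, a replicate block and leaving out arrays were tried as alternatives.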

Additional observations from a re-analysis of the deposited data

How the results depend on the processing

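No member passed an adjusted p of 0.05 under any of the 16 alternatives. The number of probe sets called was 0 and became 3 with a signal of 100 in all 6 arrays (8849 tested, Cyp4a12a and Cyp4a12b left out), 1 with an intensity trend in limma, and 0 to 1 when 1 array was left out. At an unadjusted p of 0.05, 742 probe sets passed, against 1739 with no filter, 1188 without CT 3, 416 without LERKO 1 and 1152 without CT 3 and LERKO 2. Members with a higher mean in LERKO numbered 2 to 5 with 1 array left out (5 without CT 3) and 6 without CT 3 and LERKO 2, and their median difference was -0.053 to 0.49 and 0.37 (log2). With 1 array left out Cyp4a12a ran from -1.64 to 0.49, Cyp4a12b from -1.49 to 0.49, Cyp4f13 from -0.11 to 0.038 and Cyp4f14 from -0.0078 to 0.050. Without CT 3 and LERKO 2 the values were 0.37 for Cyp4a12a, 0.50 for Cyp4a12b and 0.0033 for Cyp4f13. The cause of these sign changes in Cyp4f13 and Cyp4f14 was not tested. Same-numbered mice did not deviate together (correlations -0.157, -0.0731 and -0.137), and with the replicate block 0 probe sets were called, 574 passed an unadjusted p of 0.05 and Cyp4a14 differed by 0.64 (adjusted p = 0.863). Each measured member had 1 probe set of its own, so averaging probe sets gave no other value. With 3 mice per group, the 1.56-fold difference of Cyp4a14 did not pass the adjusted threshold. Signals under 100 lie below the minimum used here, and the level of background was not estimated.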

Other observations

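Transcription factors and coregulators of CYP4 genes were split between the directions. Of 23 measured of 28, 11 had a higher and 12 a lower mean in LERKO. Nrip1, 1 of the 11, was kept only through LERKO 2. Among the 19 that reached a signal of 100 in all 6 arrays, 7 had a higher and 12 a lower mean. 5 of the 23 passed an unadjusted p of 0.05 in limma, 2 of them higher and 3 lower, beside 6.98% of all probe sets. None passed an adjusted p of 0.05. The list holds Esr1, the deleted gene, which is 1 of the 3. The others were Ppargc1b, a coactivator (-0.49, SE 0.17), and Nr3c1, the glucocorticoid receptor (-0.20, SE 0.06), both with every LERKO mouse below every CT mouse. Only 1 passed without CT 1, 2 without LERKO 2 or LERKO 3, and 3 without CT 2, LERKO 1 or CT 3 and LERKO 2 together. Bcl6, a repressor, read 6.28, 5.94 and 6.98 in CT livers and 6.96, 7.93 and 7.34 in LERKO livers (log2), a difference of 1.01 (SE 0.33; limma adjusted p = 0.703) with overlapping groups. For Bcl6, CT 1 and CT 2 were below a signal of 100. Nr0b2, the small heterodimer partner, differed by 0.54 (SE 0.35) and Cux2, a female-biased factor, by 0.53 (SE 0.26).

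Cyp4a14 is itself higher in livers of female mice. Of 14 other female-biased genes, 12 had a higher and 2 a lower mean in LERKO (median 0.22, log2), and LERKO 3 was the highest of the 6 mice for 7 of them. 4 passed an unadjusted p of 0.05 in limma, beside 6.98% of all probe sets, and none passed an adjusted one. Without LERKO 3, 2 passed, and without CT 2, 6 did. Without CT 3 and LERKO 2 the split was 10 higher and 4 lower. Cyp3a16, a steroid hydroxylase, read 6.03, 6.09 and 6.74 in CT livers and 7.71, 7.24 and 9.11 in LERKO livers (log2), a difference of 1.73 (SE 0.48; limma adjusted p = 0.703) without overlap. For Cyp3a16, CT 1 and CT 2 were below a signal of 100 and CT 3 was just above it. Cyp3a44 differed by 0.50 (SE 0.29). Acot3 (0.55, SE 0.19), which passed the unadjusted p, and Cux2 and Abcd2 also belong to lists described above, so the lists are not independent.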
